A study of Marchantia polymorpha with 9 samples.

Results

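MpCOI1 and MpJAZ are the receptor and the co-receptor of dinor-OPDA, the jasmonate-type hormone of the liverwort Marchantia polymorpha. They were taken as the rows Mapoly0025s0025.v3.1 (MpCOI1) and Mapoly0097s0021.v3.1 (MpJAZ) of the count table, 2 of its 19287 gene IDs. Both passed the low-count filter and were tested with the other 14811 genes kept. No list of the pathway's other genes could be described, because no source used here pairs their names with the IDs of the table. The names of both rows come from the definition of the pair. The reference gene table lists both symbols, but under identifiers of another kind, so the pairing was not checked against sequence.

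Transcripts were measured by RNA sequencing in whole thalli, the flat plant body, of 3 genotypes labelled OX, KO and WT, with 3 libraries each. OX, KO and WT are read as overexpression, knockout and wild type, as is usual in the field. All plants were male, of the Cambridge strain, raised from gemmae on agar at 22 °C with 16 h of light and 8 h of darkness and harvested at 10 days. The labels name no gene, promoter or construct for OX or KO, and the series title points to a MYB transcription factor of the MIXTA type, related to regulators of epidermal cell shape. The targeted row was not identified here, so the OX and KO labels were not checked against it. The series describes 3 biological replicates per line, which makes each genotype 1 line. Library totals ranged from 44802998 to 57696744 counts, WT replicate 2 being the shallowest. Every count was even, as when both reads of a pair are counted. Of 113 gene IDs with a Y-chromosome name, 34 passed the low-count filter, and 33 of these had counts in every library. The filter itself asks for counts in several libraries, so this is not a test of the male label.

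In flowering plants, COI1 is an F-box protein that gives an SCF ubiquitin ligase its target, and JAZ proteins are repressors that hold MYC transcription factors inactive. The hormone joins COI1 to JAZ, JAZ is degraded, and the MYC factors are released. Liverworts use the same receptor pair with dinor-OPDA, a precursor-type molecule made from plastid fatty acids, in place of jasmonoyl-isoleucine, and the pathway is known for wound and herbivore defence and for restraint of growth. Much of this control acts on the stability of JAZ protein, which transcript counts do not measure. In Arabidopsis, JAZ genes are also transcribed more when the hormone acts.

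MpCOI1, the receptor, was read at nearly the same level in all 9 thallus libraries. In OX thalli it had 87.1, 84.9 and 83.7 CPM in replicates 1 to 3, where CPM are counts scaled for depth and by TMM factors, which even out differences in library composition. In KO thalli it had 78.8, 80.0 and 80.4 CPM, and in WT thalli 82.9, 76.8 and 82.8 CPM. All 3 OX libraries lay above all KO and all WT libraries, while KO and WT libraries overlapped. Of all genes tested, 19.9% had OX libraries wholly above WT and 23.8% wholly above KO. The share above both was not counted. In whole thalli, fewer cells of a type and less RNA per cell cannot be told apart. The highest of the 9 libraries was 1.13 times the lowest.

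The means of MpCOI1 were 85.2 ± 1.72 CPM in OX, 79.7 ± 0.84 CPM in KO and 80.8 ± 3.50 CPM in WT (SD, n = 3 libraries each). By level the genotypes stood in the order OX, WT and KO, and no neighbours in this order differed past the threshold of an adjusted p of 0.05. Libraries of a genotype differed by 2.01% (OX), 1.05% (KO) and 4.33% (WT) as coefficients of variation. Counting error alone, from 1697 to 2545 read pairs per library, gives 1.98% to 2.43%. The spread among OX and among KO libraries was therefore no larger than counting error, and the wider spread in WT came from replicate 2, the lowest of the 9.

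**Figure D1:**
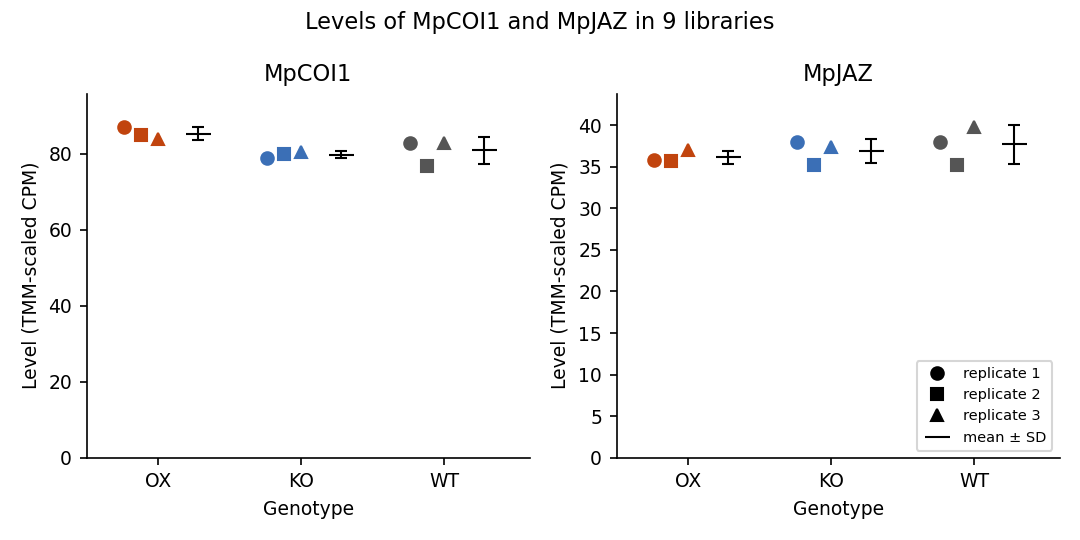
Levels of MpCOI1 (left) and MpJAZ (right) in TMM-scaled CPM, by genotype, with 1 point per library (shape gives the replicate number) and the mean ± SD of 3 libraries beside them. All points lie between 76.8 and 87.1 CPM for MpCOI1 and between 35.2 and 39.8 CPM for MpJAZ. MpCOI1 in OX is the only group that does not overlap the others. Of all genes tested, 19.9% had OX wholly above WT and 23.8% wholly above KO.

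MpJAZ, the co-receptor and repressor, also had close values in all libraries. In OX thalli it had 35.7, 35.7 and 37.0 CPM in replicates 1 to 3, in KO thalli 38.0, 35.2 and 37.4 CPM, and in WT thalli 38.0, 35.2 and 39.8 CPM. The 3 genotypes overlapped, and the highest library was 1.13 times the lowest, as for MpCOI1. The lowest library of each genotype was replicate 2, by a narrow margin in OX (35.66 CPM, against 35.74 CPM in replicate 1).

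The means of MpJAZ were 36.1 ± 0.77 CPM in OX, 36.9 ± 1.45 CPM in KO and 37.7 ± 2.32 CPM in WT (SD, n = 3 libraries each). The order of the levels was WT, KO and OX, and no neighbours in it differed beyond the spread of their libraries. The coefficients of variation were 2.14% in OX, 3.93% in KO and 6.15% in WT, where counting error from 778 to 1149 read pairs per library gives 2.95% to 3.59%.

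Setting OX against WT asks whether the receptor pair is transcribed differently in the line labelled OX. Neither gene passed the test. MpCOI1 averaged 85.2 CPM in OX and 80.8 CPM in WT, a log2 fold change of 0.08 ± 0.042 (SE) with a 95% interval of -0.02 to 0.17, and edgeR's quasi-likelihood test gave an adjusted p of 0.226. MpJAZ averaged 36.1 CPM in OX and 37.7 CPM in WT, a log2 fold change of -0.06 ± 0.055 with an interval of -0.18 to 0.06 (edgeR adjusted p = 0.473). As fold changes, the intervals ran from 0.988 to 1.13 for MpCOI1 and from 0.881 to 1.04 for MpJAZ. In this comparison 24.8% of all genes tested were called. The OX libraries of MpCOI1 all lay above those of WT, and 19.9% of all genes had OX libraries wholly above WT. Without WT replicate 2 the log2 fold changes were 0.04 for MpCOI1 and -0.11 for MpJAZ, and without WT replicate 3 they were 0.10 and -0.01.

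Setting KO against WT asks the same of the line labelled KO. MpCOI1 averaged 79.7 CPM in KO and 80.8 CPM in WT, with a log2 fold change of -0.02 ± 0.042 (SE) and a 95% interval of -0.11 to 0.07 (edgeR adjusted p = 0.815). MpJAZ averaged 36.9 CPM in KO and 37.7 CPM in WT, with a log2 fold change of -0.03 ± 0.055 and an interval of -0.15 to 0.09 (edgeR adjusted p = 0.771). The corresponding fold changes lay between 0.924 and 1.05 for MpCOI1 and between 0.899 and 1.06 for MpJAZ. Here 14.1% of all genes tested were called. The libraries of KO and WT overlapped for both genes, while 31.2% of all genes showed no overlap. The sign of the small MpJAZ value rested on WT replicate 3, without which the log2 fold change was 0.01, and it was -0.00018 without KO replicate 2. The same WT libraries served here and in the comparison with OX.

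The direct comparison of OX with KO gave the largest difference of the 6 computed for the pair. MpCOI1 averaged 85.2 CPM in OX and 79.7 CPM in KO, a log2 fold change of 0.10 ± 0.042 (SE) with a 95% interval of 0.0022 to 0.19. The unadjusted p of edgeR's quasi-likelihood test was 0.0457 and the adjusted p 0.105, so the difference did not pass. It corresponds to 6.90% more in OX. Of all genes, 34.7% were called in this comparison, 44.2% had an unadjusted p under 0.05, and 23.8% had OX libraries wholly above the KO libraries, as MpCOI1 did. MpJAZ averaged 36.1 CPM in OX and 36.9 CPM in KO, a log2 fold change of -0.03 ± 0.055 with an interval of -0.15 to 0.09 (edgeR adjusted p = 0.731).

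Of the scalings tried, only that by library size alone gave a call for MpCOI1 between OX and KO. The TMM factors differed by genotype, from 1.02 to 1.04 in OX, from 0.958 to 0.987 in KO and from 0.986 to 1.01 in WT. With library size alone, MpCOI1 had 86.2 to 89.0 CPM in OX, 76.6 to 79.4 CPM in KO and 75.8 to 83.3 CPM in WT. The log2 fold change of OX against KO was then 0.17 with a 95% interval of 0.07 to 0.27, and it passed (edgeR adjusted p = 0.0127). In that fit 5821 of the 14813 genes tested were called between OX and KO. With the same scaling, all genes had a median log2 fold change of 0.07, against -0.0023 with TMM factors, and MpCOI1 lay 0.10 above that median. MpJAZ changed sign, to 0.05, and did not pass (edgeR adjusted p = 0.572). OX against WT gave 0.13 for MpCOI1 with library size alone and did not pass (edgeR adjusted p = 0.0621). With RLE or upper-quartile factors in place of TMM factors, OX against KO gave 0.097 and 0.11 for MpCOI1. Neither value passed (edgeR adjusted p = 0.0999 and 0.0582).

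Over the 3 comparisons, 0 of 6 tests passed with edgeR, and 1 of 6 had an unadjusted p under 0.05, as 36.4% (OX against WT), 27.4% (KO against WT) and 44.2% (OX against KO) of all genes did. DESeq2 and limma-voom also called 0 of 6. In the test for any difference among the 3 genotypes, the adjusted p was 0.182 for MpCOI1 and 0.662 for MpJAZ, where 36.8% of all genes were called. A value that misses the threshold does not show that the genotypes are equal. The intervals bound what these libraries allow, and with TMM factors all 6 lay between 0.881-fold and 1.14-fold. They cover the spread between the libraries of 1 line per genotype.

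**Figure D2:**
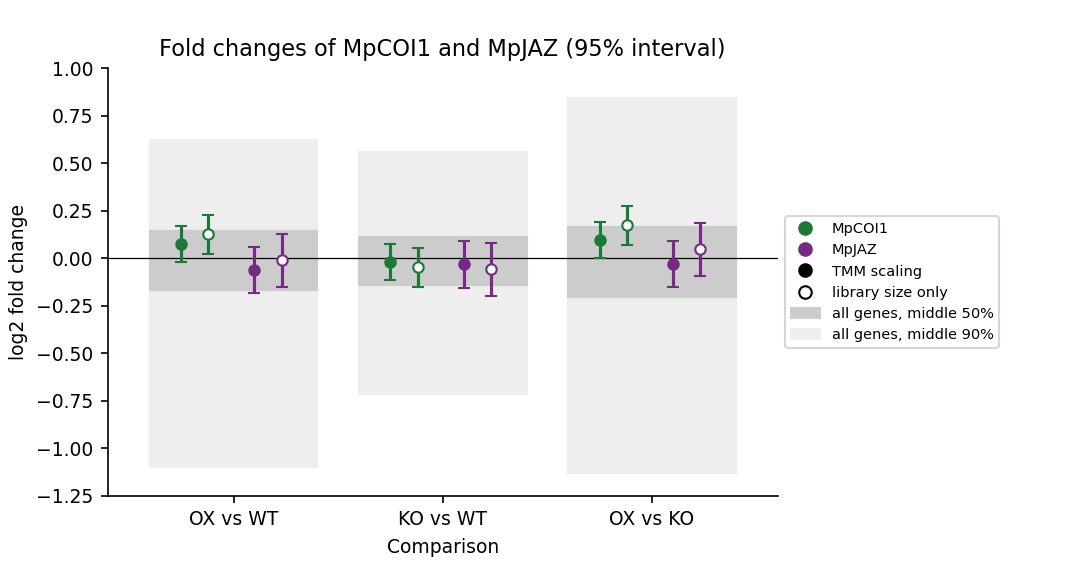
Log2 fold changes of MpCOI1 (green) and MpJAZ (purple) in the 3 comparisons, with 95% intervals, from TMM-scaled counts (filled) and from library size alone (open); grey bands hold the middle 50% and 90% of all genes tested, with TMM factors. With TMM factors the values run from -0.06 to 0.10 and lie within the inner band. The open MpCOI1 value for OX against KO is 0.17. The bands do not apply to the open points, since with library size alone the median of all genes in that comparison is 0.07.

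The changes were set among those of the other genes. The median size of the log2 fold change over all genes tested was 0.15 in OX against WT, 0.12 in KO against WT and 0.19 in OX against KO. The change of MpCOI1 was larger than that of 29.4%, 10.3% and 30.4% of all genes in these comparisons. For MpJAZ the shares were 23.8%, 16.5% and 9.08%. Low counts widen fold changes, so the pair was also set beside genes of like abundance. There MpCOI1 stood nearer the middle, with a change larger than that of 44.1%, 15.4% and 44.5% of the genes within 2-fold of its mean. For MpJAZ these shares were 32.3%, 23.1% and 12.5%. Of the 3664 genes with a mean within 2-fold of MpCOI1, 24.1% were called in OX against WT, 13.7% in KO against WT and 36.2% in OX against KO. Of the 4803 genes within 2-fold of MpJAZ, 23.6%, 14.4% and 33.8% were called.

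The libraries of a genotype were also close to each other for both genes. The standard deviation of log2 CPM within genotypes was 0.04 for MpCOI1, against a median of 0.06 for genes of like abundance, and 18.2% of those genes had a smaller one. For MpJAZ it was 0.06, against a median of 0.07, with 38.2% of like genes smaller.

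The number of MpJAZ counts per MpCOI1 count in a library sets repressor against receptor and needs no scaling between libraries. It is not a ratio of molecules, since the lengths of the transcripts do not enter. In OX thalli it was 0.410, 0.420 and 0.442 in replicates 1 to 3. In KO thalli it was 0.482, 0.440 and 0.465, and in WT thalli 0.458, 0.458 and 0.481. All 3 OX libraries lay below all WT libraries, and OX replicate 3 was marginally above KO replicate 2.

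The mean ratio was 0.424 ± 0.016 in OX, 0.462 ± 0.021 in KO and 0.466 ± 0.013 in WT (SD, n = 3 libraries each). On the log2 scale the difference of OX from WT was -0.13, which is 0.911-fold. The exact two-sided permutation test gave p = 0.10, the smallest value that 3 libraries against 3 allow, and 0.30 after Benjamini-Hochberg adjustment over the 3 comparisons. OX differed from KO by -0.12 (exact permutation p = 0.20, adjusted 0.30) and KO from WT by -0.01 (exact permutation p = 1, adjusted 1). Over all 1680 assignments of the 9 libraries to 3 genotypes, the exact permutation p for any difference was 0.0786, where the smallest possible is 0.00357. Without KO replicate 2, the KO library with the lowest ratio, it was 0.0393. Leaving out any other single library gave an exact permutation p of 0.0714 to 0.175. Exact binomial 95% intervals of single libraries cover counting error only. That of OX replicate 1, 0.380 to 0.442, overlapped that of WT replicate 1, 0.426 to 0.492, and not that of WT replicate 3, 0.448 to 0.516. Every other pair of an OX and a WT library had overlapping intervals.

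**Figure D3:**
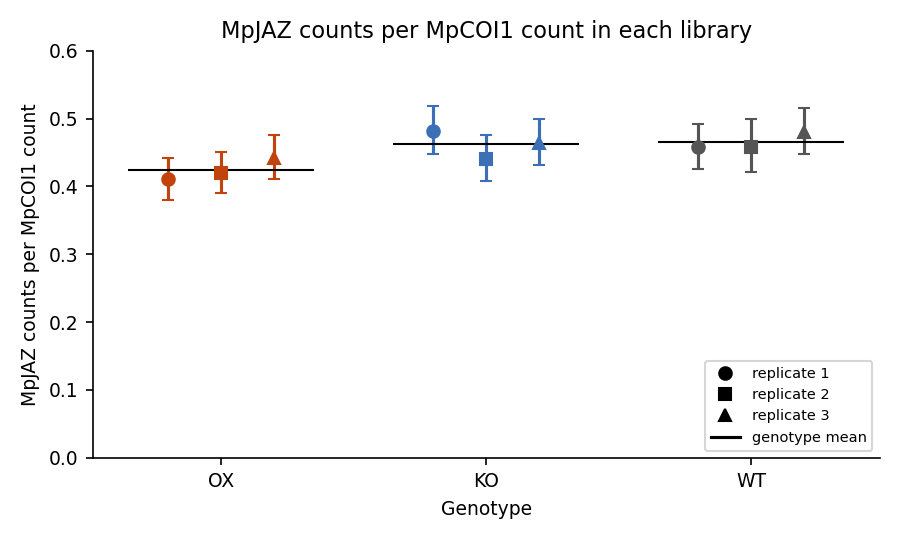
MpJAZ counts per MpCOI1 count in each library, by genotype, with exact binomial 95% intervals from read pairs and the genotype mean as a line. The OX libraries lie between 0.410 and 0.442 and the WT libraries between 0.458 and 0.481, and KO spans 0.440 to 0.482.

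Likeness of pattern was measured as Pearson's r of log2 CPM over the 9 libraries, among the 10579 other genes with a mean of at least 5 CPM. These libraries share 3 genotypes and their depth, so r is a description. MpJAZ and MpCOI1 had an r of 0.066, and MpJAZ ranked 5175th in likeness to MpCOI1. Taken as deviations from the genotype means, the same 9 libraries gave an r of 0.530 for the pair. This value was not ranked among other genes. WT replicate 2 was the lowest of the 9 libraries for both genes (76.8 and 35.2 CPM). In KO replicate 1 and in OX replicate 3, MpCOI1 was the lowest and MpJAZ the highest of the genotype. For MpCOI1, 25 genes had an r above 0.9, and for MpJAZ 0 genes did.

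The gene ID most like MpCOI1 was Mapoly0049s0091 (r = 0.951), with 11.1 ± 0.26 CPM in OX, 8.96 ± 0.17 CPM in KO and 9.39 ± 1.10 CPM in WT (SD, n = 3 libraries each). It differed between OX and KO (log2 fold change 0.31, edgeR adjusted p = 0.0197) and did not pass in the comparisons with WT. The next was MapolyY_A0007 (r = 0.949), an ID with a Y-chromosome name, with 104.1 ± 1.54 CPM in OX, 97.2 ± 0.44 CPM in KO and 97.9 ± 2.22 CPM in WT. No comparison of this ID passed. The order of the genotypes in both IDs follows from their choice by likeness to MpCOI1. The call for Mapoly0049s0091 rests on the same libraries that chose it, and 34.7% of all genes were called in OX against KO. The IDs most like MpJAZ were Mapoly0005s0212 (r = 0.873) and Mapoly0148s0001 (r = 0.867), and neither passed in any comparison. Mapoly0148s0001 had 56.4 ± 1.92 CPM in OX, 59.7 ± 2.61 CPM in KO and 59.4 ± 2.87 CPM in WT.

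Gene IDs numbered close to the pair on the same scaffold were set beside them. The numbering is the only position available here. On scaffold 0025, 8 of the 10 IDs numbered within 5 of MpCOI1 were tested. For OX against WT, 1 of them fell, Mapoly0025s0022 (log2 fold change -0.47, edgeR adjusted p = 7.36e-04), and 7 did not pass. For KO against WT, 1 rose, Mapoly0025s0028 (log2 fold change 0.39, edgeR adjusted p = 0.0153), and 7 did not pass. Of the 105 other IDs tested on the whole scaffold, 8 rose and 14 fell in OX against WT, with a median log2 fold change of -0.0063, where 24.8% of all genes were called. In KO against WT, 7 rose and 4 fell, where 14.1% of all genes were called.

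On scaffold 0097, 7 of the 10 IDs numbered within 5 of MpJAZ were tested. For OX against WT, 3 of them fell and 4 did not pass. The largest fall was that of Mapoly0097s0025 (log2 fold change -1.32, edgeR adjusted p = 4.71e-06), and the ID numbered next after MpJAZ fell by 0.22 on the log2 scale (edgeR adjusted p = 0.0295). Mapoly0097s0026 fell both in OX (log2 fold change -0.27, edgeR adjusted p = 0.00478) and in KO (-0.38, edgeR adjusted p = 0.00125), each against WT, and the other 6 IDs did not pass for KO. Of the 61 other IDs tested on the whole scaffold, 4 rose and 13 fell in OX against WT, with a median log2 fold change of 0.0018, and 7 rose and 8 fell in KO against WT. The shares called among all genes are those given for the other scaffold, 24.8% and 14.1%. The neighbouring IDs named were picked with their values in view.

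**Figure D4:**
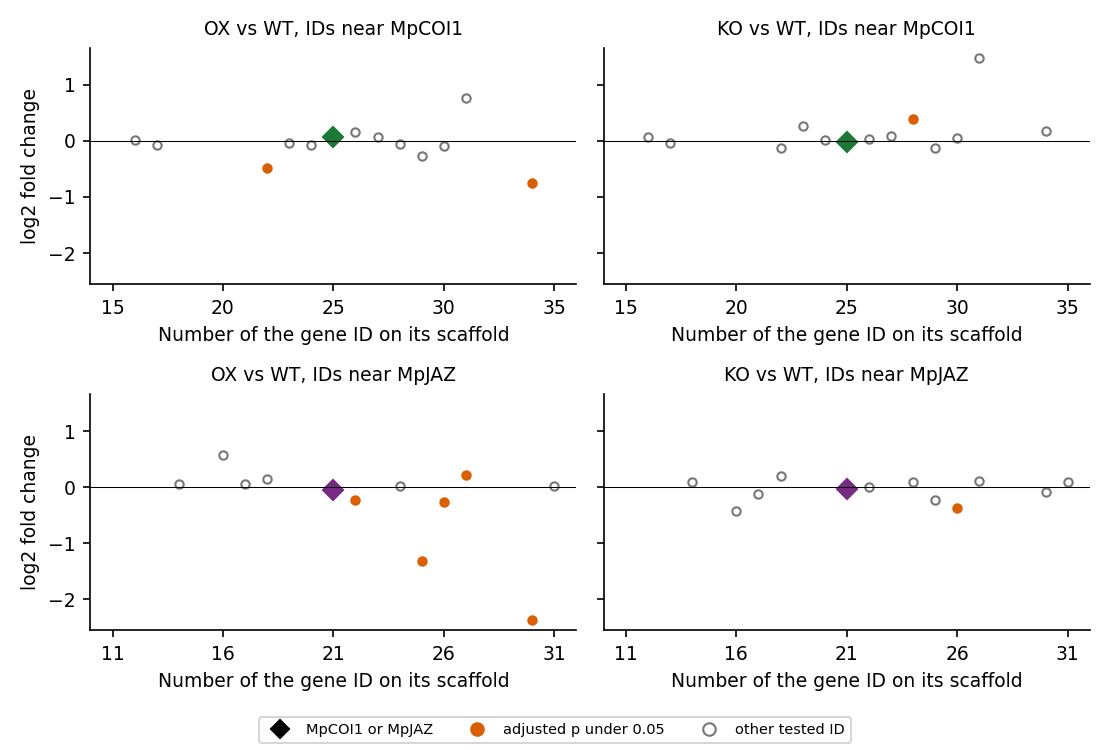
Log2 fold changes of OX against WT (left) and KO against WT (right) for tested gene IDs numbered within 10 of MpCOI1 (top) and of MpJAZ (bottom) on their scaffolds; orange points have an adjusted p under 0.05. The diamonds of MpCOI1 and MpJAZ lie near 0 in all 4 panels. Mapoly0097s0025, 4 places after MpJAZ, lies at -1.32 for OX, and Mapoly0097s0030, further along, at -2.36.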

How the data were processed

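The authors deposited raw counts per gene ID, 1 column per library, per the file headers, with gene IDs that end in v3.1. Per the submitters' processing notes, the tools included STAR 2.5.1b and featureCounts 1.5. Settings, strand use and build were not given in the sources used here, so reads of overlapping genes or near-identical copies could have been split. Totals were 22401499 to 28848372 read pairs, and a count of 0 would allow up to 3 pairs.

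Counts were tested as deposited with edgeR 4.0.16 in R 4.3.3. filterByExpr by genotype kept 14813 of 19287 genes. TMM factors and a quasi-likelihood model with a mean for each genotype were fitted to all 9 libraries. Adjustment by Benjamini and Hochberg covered every gene kept, at a threshold of 0.05. Intervals on fold changes are 95% intervals from the same model. Where the separateness of cultures is not stated, p-values measure the spread between these libraries. Chi-square values between replicates of a genotype were 6.25 to 17.0 per degree of freedom, above sampling noise. No library was therefore a resampling of another of its genotype. Libraries of different genotypes were not compared in this way. The edgeR steps were also run on simulated counts with changes placed in OX only. That setting is simpler than these data, and no result here rests on it. The table held 0 columns from other samples.

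The named IDs were the pair, and for each the 2 IDs of highest Pearson's r over the 9 libraries with a prior count of 2. Of the file's IDs, 0 matched the reference gene table of assembly MpTak2_v7.1. The pair, the rules and the alternatives were chosen with earlier results of these data known. Alternatives were other scalings and filters, DESeq2 1.42.0, limma-voom 3.58.1, fits on the genotypes compared, halved counts, the replicate number as a block and leaving out each library.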

Additional observations from a re-analysis of the deposited data

How the results depend on the processing

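Of 114 recomputed fold changes of MpCOI1 and MpJAZ, 1 passed the threshold and 2 changed sign. With library size alone, MpCOI1 passed for OX against KO (log2 fold change 0.17, edgeR adjusted p = 0.0127), where 5821 of the 14813 genes tested were called. MpCOI1 also passed for any difference (edgeR adjusted p = 0.0260), where the genes called with this scaling were not counted. MpJAZ turned to 0.048 for OX against KO, and the TMM factors differ by genotype. Leaving out 1 library gave, for MpCOI1, log2 fold changes of 0.04 to 0.10 (OX against WT), -0.055 to -0.00070 (KO against WT) and 0.087 to 0.12 (OX against KO), with adjusted p of 0.121 to 0.348 for any difference. For MpJAZ these were -0.11 to -0.010, -0.077 to 0.012 (turning positive without WT replicate 3), -0.060 to -0.0067, and 0.313 to 0.928. The log2 ratio of MpJAZ to MpCOI1 differed by -0.165 to -0.11 (OX against WT), -0.041 to 0.023 (KO against WT; 0.023 without KO replicate 2 and 0.012 without WT replicate 3) and -0.158 to -0.094 (OX against KO), with p of 0.0393 to 0.175 for any difference. The numbers of genes called, 3667 in OX against WT, 2096 in KO against WT and 5144 in OX against KO, were 920, 471 and 1256 at a minimum change of 2-fold, and 2678 to 3667, 1293 to 2076 and 4063 to 5332 without 1 library, the lowest KO against WT value coming without KO replicate 2. By Spearman's rho, 1 of the 2 IDs most like MpCOI1 and 0 of the 2 most like MpJAZ were the same. For the other moves, the cause was not tested.

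The labels give same-numbered libraries nothing else in common. Their deviations from the mean of the genotype had correlations of 0.0096 to 0.241, over 0.1 in 6 of 9 pairs, and 7 of 9 libraries correlated best with their own number. With the replicate block the genes called were 5158, 3516 and 6578, and no call for MpCOI1 or MpJAZ changed (adjusted p = 0.0647 for MpCOI1 in OX against KO). For the ratio, the sign-flip tests within replicate numbers gave exact p = 0.25, 1 and 0.25 and cannot go below 0.25, and the test of any difference gave 0.111. At this depth and replication, differences of a few percent lie within the intervals of these genes.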
